A study of Mus musculus with 16 samples.

Results

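The proneural bHLH genes studied here were Neurog1, Neurog2, Neurog3, Neurod1, Neurod2, Neurod4, Atoh1, Olig1 and Olig2. They are 9 of the 22232 protein-coding gene names in the GENCODE M1 annotation of the mouse assembly NCBIM37 (mm9), and they were chosen by name as factors that direct progenitors to neuronal or glial fates. For each gene, peaks were counted in a region that joined 2500 bp on either side of each protein-coding start site with the gene body. The number of peaks, the length they covered inside the region and their highest fold enrichment were taken from each list.

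The series held 16 ChIP-seq libraries with 1 library per group, of which 10 had a peak list and 6 were inputs, not used here. H2AK119ub1 and H3K27me3 were profiled in wild type cells and in cells with the genotype shPCGF5, called PCGF5-deficient below, as mouse ES cells of the 46C line and as neural cells differentiated from such cells in vitro (NPCs, day 6). The methods of the study describe lentiviral hairpin lines in 46C cells as well as a nuclease knockout. The labels name the hairpin genotype, and no peak list measures the level of Pcgf5, so the depletion could not be checked here. Flag-PCGF5 was profiled in ES cells, which the labels call wild type and the methods describe as knock-in cells whose Pcgf5 gene carries a Flag tag, and in NPCs made from them. With 1 library per group no comparison was tested. Each count of genes with a peak is therefore set beside the share of all protein-coding genes with one. Each count of genes that differed between lists is set beside the share among the protein-coding genes with a peak in either of them, called marked genes below.

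The histone lists held 3845 to 14759 peaks and covered 1.12 to 9.67 Mb of the genome. The Flag-PCGF5 lists held 653 peaks in ES cells and 12013 in NPCs. Each list was called in its own library, read totals are not in the lists, and a list with more or wider peaks covers more of any gene. Fewer cells carrying a mark and less of the mark in each cell cannot be told apart in such data. Among stem cell markers, Pou5f1 and Nanog had no peak in any of the 10 lists, Zfp42 had an H3K27me3 peak in wild type NPCs and a Flag-PCGF5 peak in ES cells, and Esrrb had peaks in all 8 histone lists. Among neural markers, Pax6, Nes and Pou3f2 all had H3K27me3 peaks in NPCs of both genotypes, and the peak lists measure no expression, so the labelled cell types were not checked by transcript level. At Nes, H3K27me3 covered 1252 bp in wild type and 3405 bp in PCGF5-deficient NPCs, and H2AK119ub1 nothing and 354 bp. At Pou3f2 the H3K27me3 lengths were 1953 bp and 3510 bp, and those of H2AK119ub1 nothing and 751 bp, while Pax6 had less of both marks in PCGF5-deficient NPCs.

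Proneural bHLH proteins bind E-box sequences in DNA as heterodimers with E proteins, and they switch on genes for neuronal differentiation. Id proteins sequester the E proteins, and Hes and Hey proteins repress the proneural genes. In stem cells many such developmental regulators are held silent by the Polycomb system. Polycomb repressive complex 2 trimethylates histone H3 on a lysine of its tail (H3K27me3), and Polycomb repressive complex 1 monoubiquitinates histone H2A on a lysine near its end (H2AK119ub1). PCGF5 is a subunit of a variant form of the latter complex.

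CpG dinucleotides are dense at many promoters that the Polycomb system occupies, and the 9 genes differed widely in them. The 250 bases before the start site are shown for Neurog1, which had the Flag-PCGF5 peak of the group, for Neurog2, whose start lay under H2AK119ub1 peaks in both kinds of NPC, and for Neurod4, which had no peak in any list. They were read from NCBIM37, run 5′ to 3′ on the strand of the gene, and carry each CG in capitals.
Neurog1 (chr13:56353525-56353774, minus strand): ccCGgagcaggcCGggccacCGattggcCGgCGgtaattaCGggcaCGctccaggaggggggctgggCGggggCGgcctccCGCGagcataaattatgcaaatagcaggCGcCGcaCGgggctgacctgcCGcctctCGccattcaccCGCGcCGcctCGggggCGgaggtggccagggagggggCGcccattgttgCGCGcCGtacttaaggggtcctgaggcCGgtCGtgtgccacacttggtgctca
Neurog2 (chr3:127335804-127336053, plus strand): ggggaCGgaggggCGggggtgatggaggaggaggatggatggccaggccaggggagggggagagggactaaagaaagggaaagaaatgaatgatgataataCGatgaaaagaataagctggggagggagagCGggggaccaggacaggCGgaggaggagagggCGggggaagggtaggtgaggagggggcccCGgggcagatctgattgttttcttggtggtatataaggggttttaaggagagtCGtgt
Neurod4 (chr10:129717297-129717546, minus strand): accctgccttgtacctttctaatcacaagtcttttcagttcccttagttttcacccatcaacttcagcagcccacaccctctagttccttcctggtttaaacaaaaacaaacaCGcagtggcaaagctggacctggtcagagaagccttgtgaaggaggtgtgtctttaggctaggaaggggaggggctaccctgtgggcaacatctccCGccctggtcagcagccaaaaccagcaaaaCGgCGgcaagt
The 3 stretches held 27 CG at Neurog1, 8 at Neurog2 and 4 at Neurod4, beside a median of 9 over 22229 protein-coding genes with a sequence. Over the wider window of 500 bp on either side of the start, Neurog2 had 84 CpG and an observed over expected ratio of 0.852. Neurog1 had 89 CpG and a ratio of 0.756. Neurod4 had 11 CpG and a ratio of 0.200, the lowest of the 9 genes and at the 21.8th percentile of all genes. The other 6 genes lay between 0.455 at Neurod2 and 0.806 at Olig1, and the median of all genes was 0.555. The letters CAGCTG occurred in the 250 bases before Neurog3, and CAGATG or its reverse complement CATCTG before Neurod1 and Neurod2. Either motif was present at 3 of the 9 genes and at 22.7% of all genes, with both strands read.

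Most of the 9 genes were marked in every condition. H3K27me3 peaks lay at 8 genes in wild type ES cells (17.0% of all protein-coding genes), 7 in PCGF5-deficient ES cells (16.3%), 8 in wild type NPCs (17.8%) and 8 in PCGF5-deficient NPCs (17.7%). H2AK119ub1 peaks lay at 7 genes in wild type ES cells (10.8%), 6 in PCGF5-deficient ES cells (9.98%), 8 in wild type NPCs (6.29%) and 6 in PCGF5-deficient NPCs (5.92%). Peaks in all 4 H3K27me3 lists were found at 7 genes (8.67%), and peaks in all 4 H2AK119ub1 lists at 5 genes (2.06%). Neurog1, Neurog2, Neurod2 and Olig2 had peaks in all 8 histone lists, as did 1.97% of all genes. Neurod4 had no peak in any of the 10 lists, as for 56.9% of all genes. Both marks were present at 7 genes in wild type ES cells (8.31%), 5 in PCGF5-deficient ES cells (6.88%), 8 in wild type NPCs (5.75%) and 6 in PCGF5-deficient NPCs (5.18%).

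**Figure D1:**
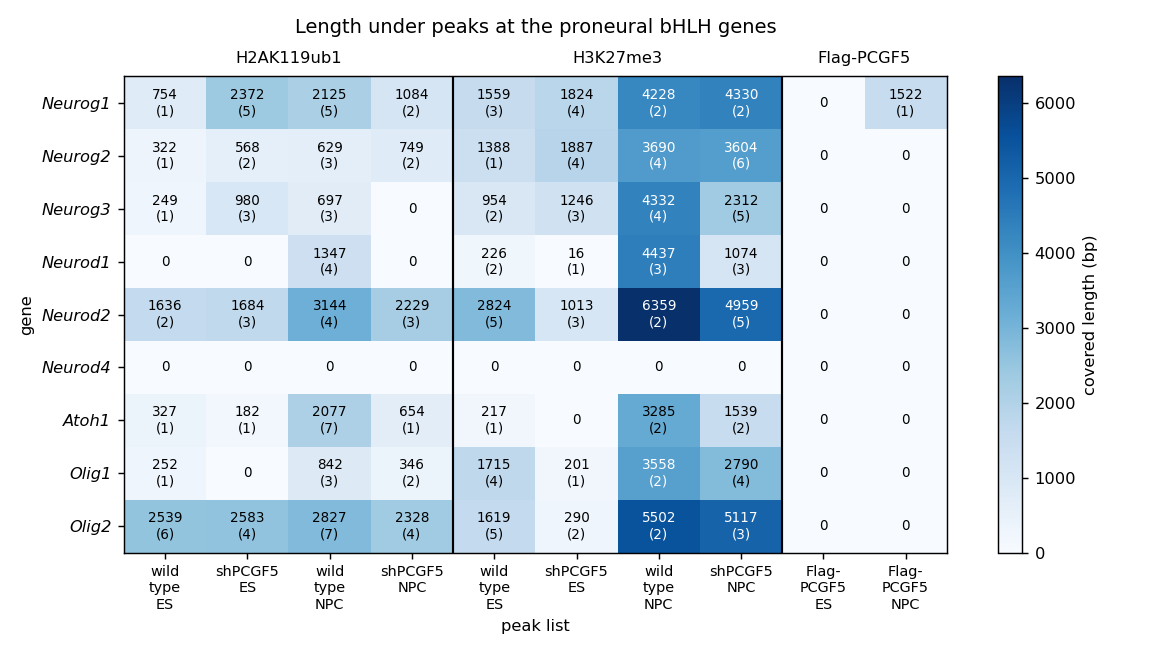
Length under peaks (colour and upper number, bp) and number of peaks (in parentheses) for each of the 9 genes (rows) in each of the 10 peak lists (columns, 1 library each). Neurod4 is at 0 throughout, and the wild type NPC column of H3K27me3 reaches 6359 bp at Neurod2.

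The neurogenins act early, when a progenitor commits to a neuronal fate. Neurog1, needed for sensory neurons, lies on chromosome 13 from 56351866 to 56353524 on the minus strand. Its H2AK119ub1 peaks covered 754 bp in wild type ES cells, 2372 bp in PCGF5-deficient ES cells, 2125 bp in wild type NPCs and 1084 bp in PCGF5-deficient NPCs. The order of the genotypes thus differed between the stages. Its H3K27me3 peaks covered 1559 bp, 1824 bp, 4228 bp and 4330 bp in the same order, so that NPCs of both genotypes stood above ES cells of both. In NPCs the broadest H3K27me3 peak at Neurog1 measured 3479 bp in wild type and 3544 bp in PCGF5-deficient cells.

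Neurog2, which drives glutamatergic neurogenesis in the cortex, lies on chromosome 3 from 127336054 to 127338549 on the plus strand. H2AK119ub1 covered 322 bp, 568 bp, 629 bp and 749 bp in wild type ES cells, PCGF5-deficient ES cells, wild type NPCs and PCGF5-deficient NPCs. Its H2AK119ub1 length in the region was thus greater in PCGF5-deficient than in wild type cells at both stages, by 246 bp in ES cells and by 120 bp in NPCs. These orders depended on the window. With 1000 bp the order in ES cells turned, at 254 bp in PCGF5-deficient against 322 bp in wild type cells. Within 20 kb of the start it held in ES cells, at 1170 bp against 322 bp. In NPCs it turned there, at 1348 bp in PCGF5-deficient against 2007 bp in wild type cells. H3K27me3 covered 1388 bp, 1887 bp, 3690 bp and 3604 bp at Neurog2 in that order, again higher in NPCs. The single wild type ES peak of 1388 bp spanned the start, whereas the 4 peaks of PCGF5-deficient ES cells lay on either side of it.

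Neurog3, the factor of endocrine cells in the pancreas, lies on chromosome 10 from 61595838 to 61597511 on the plus strand, and its region also touches 2010107G23Rik. H2AK119ub1 covered 249 bp in wild type ES cells and 980 bp in PCGF5-deficient ES cells. In NPCs it covered 697 bp in wild type cells, and no peak was called in PCGF5-deficient cells. H3K27me3 at Neurog3 covered 954 bp, 1246 bp, 4332 bp and 2312 bp in wild type ES cells, PCGF5-deficient ES cells, wild type NPCs and PCGF5-deficient NPCs. Both marks were thus longer in PCGF5-deficient than in wild type ES cells and shorter in PCGF5-deficient than in wild type NPCs.

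The NeuroD genes act later, in neurons that are maturing. Neurod1, which also serves endocrine cells, lies on chromosome 2 from 79292678 to 79296908 on the minus strand, and its region touches Cerkl. H2AK119ub1 was called at Neurod1 in wild type NPCs, with 4 peaks over 1347 bp, and in none of the other H2AK119ub1 lists. H3K27me3 covered 226 bp in wild type ES cells, 16 bp in PCGF5-deficient ES cells, 4437 bp in wild type NPCs and 1074 bp in PCGF5-deficient NPCs. The 16 bp were the edge of a peak of 239 bp that lay mostly outside the region. Wild type NPCs therefore stood above the other conditions for both marks.

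Neurod2, a factor of forebrain neurons, lies on chromosome 11 from 98186729 to 98190962 on the minus strand. H2AK119ub1 covered 1636 bp, 1684 bp, 3144 bp and 2229 bp in wild type ES cells, PCGF5-deficient ES cells, wild type NPCs and PCGF5-deficient NPCs. H3K27me3 covered 2824 bp, 1013 bp, 6359 bp and 4959 bp in that order, the longest values of the 9 genes in wild type ES cells and in wild type NPCs. In wild type NPCs 1 peak of 5382 bp ran from -2298 bp to 3083 bp of the start. Neurod4, which acts in the retina and hindbrain, lies on chromosome 10 from 129705209 to 129717296 on the minus strand, and no peak of either mark was called within 20 kb of its start in any list.

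Atoh1, the factor of cerebellar granule cells and of hair cells in the inner ear, lies on chromosome 6 from 64679140 to 64681227 on the plus strand. H2AK119ub1 covered 327 bp, 182 bp, 2077 bp and 654 bp in wild type ES cells, PCGF5-deficient ES cells, wild type NPCs and PCGF5-deficient NPCs. H3K27me3 covered 217 bp in wild type ES cells, nothing in PCGF5-deficient ES cells, 3285 bp in wild type NPCs and 1539 bp in PCGF5-deficient NPCs. Within each stage the wild type value was the higher one for both marks.

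Olig1 and Olig2, factors of the oligodendrocyte lineage and, for Olig2, of motor neurons, lie near each other on the plus strand of chromosome 16, Olig2 from 91225795 to 91228922 and Olig1 from 91270014 to 91272184. H2AK119ub1 at Olig1 covered 252 bp in wild type ES cells, nothing in PCGF5-deficient ES cells, 842 bp in wild type NPCs and 346 bp in PCGF5-deficient NPCs. H3K27me3 at Olig1 covered 1715 bp, 201 bp, 3558 bp and 2790 bp in the same order. Olig2 differed from its neighbour in that H2AK119ub1 varied little within its region, with 2539 bp, 2583 bp, 2827 bp and 2328 bp. Within 20 kb of its start H2AK119ub1 varied more, with 5343 bp, 4662 bp, 5946 bp and 3029 bp in the same order. H3K27me3 at Olig2 covered 1619 bp, 290 bp, 5502 bp and 5117 bp in wild type ES cells, PCGF5-deficient ES cells, wild type NPCs and PCGF5-deficient NPCs. In ES cells both Olig genes thus had less H3K27me3 under peaks where PCGF5 was depleted, while H2AK119ub1 in the region of Olig2 differed by 44 bp.

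**Figure D2:**
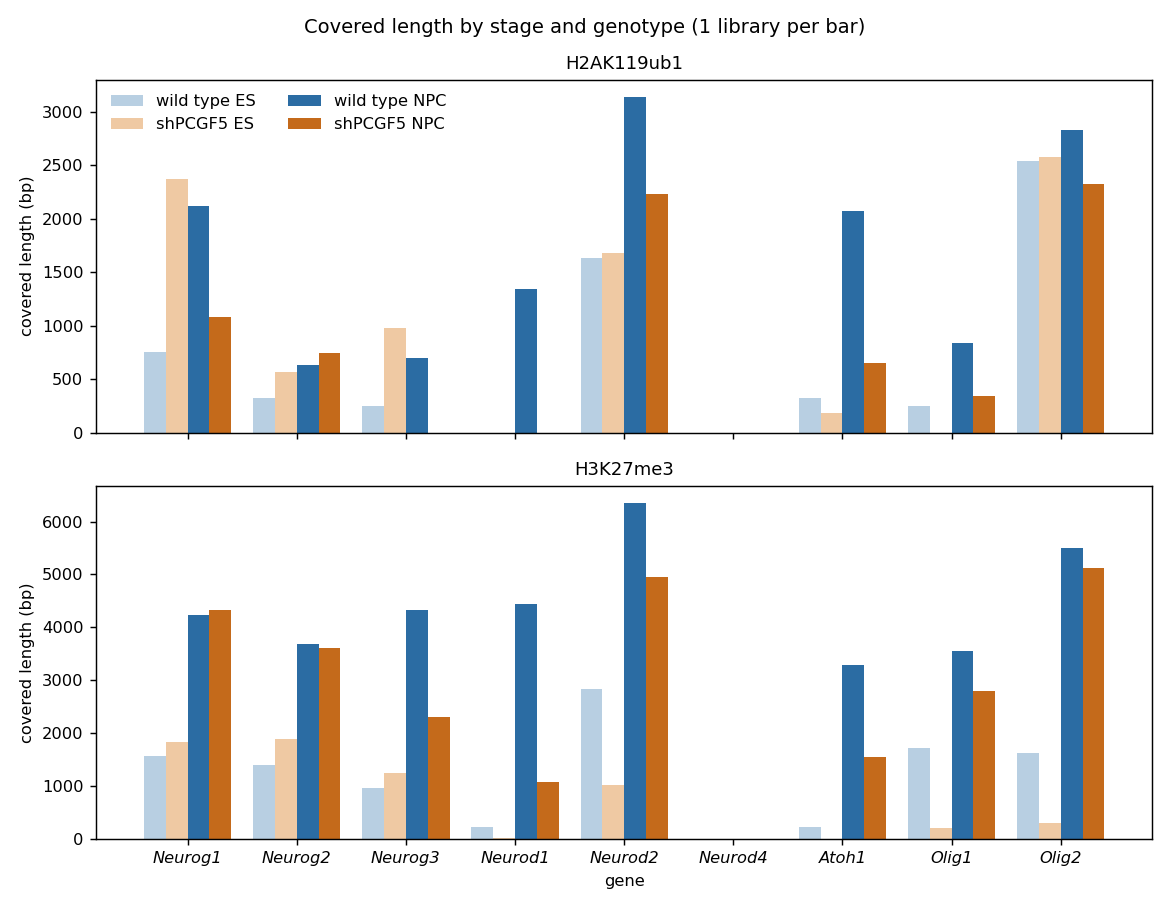
Covered length (bp) of H2AK119ub1 (upper panel) and H3K27me3 (lower panel) at each gene, with 1 bar per library for wild type and shPCGF5 ES cells and NPCs. H3K27me3 bars of wild type NPCs range from 3285 bp at Atoh1 to 6359 bp at Neurod2, with Neurod4 at 0, and H2AK119ub1 at Neurod1 is seen in wild type NPCs.

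The first comparison was that of NPCs with ES cells. In wild type cells H2AK119ub1 was longer in NPCs at 8 of the 9 genes and shorter at none, whereas among the 3060 marked genes 33.9% were longer and 66.1% shorter. Lists of related genes varied. Other neural bHLH factors had 5 longer and 1 shorter of 6 marked genes, at a median log2 ratio of 2.23. The bHLH factors of other lineages had 9 longer and 3 shorter of 12, at a median of 1.17. Targets of proneural factors had 3 longer and 2 shorter. Hes and Hey genes went the other way, with 1 longer and 2 shorter, at a median of -0.85. A ratio of covered lengths, each with 200 bp added, of at least 2 or at most 0.5 was called a change. By this rule 4 genes, Neurog1, Neurod1, Atoh1 and Olig1, were higher in wild type NPCs (17.9% of marked genes) and none was lower (40.7%). The summed H2AK119ub1 length of the 9 genes was 6079 bp in ES cells and 13688 bp in NPCs, and the median log2 ratio was 1.10 for the 8 genes with a peak and -0.84 for marked genes. The whole H2AK119ub1 lists differed by -0.09 on the log2 scale of covered length. H3K27me3 was also longer at 8 genes (66.8% of 5211 marked genes), with 7 called higher (49.8%) and none lower (20.5%), and Olig1 at a log2 ratio of 0.97 just missed the rule. Summed H3K27me3 length was 10502 bp in ES cells and 35391 bp in NPCs, with a median log2 ratio of 1.49 beside 0.99 for marked genes and 1.16 for the whole lists.

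The stages were compared in PCGF5-deficient cells in the same way. H3K27me3 was longer in NPCs at 8 genes (67.3% of 4913 marked genes), and Neurog1, Neurod1, Neurod2, Atoh1, Olig1 and Olig2 were called higher (45.0%) and none lower (21.8%). Its summed length was 6477 bp in ES cells and 25725 bp in NPCs, with a median log2 ratio of 2.32 beside 0.90 for marked genes. H2AK119ub1 did not move in 1 direction. It was longer in NPCs at 4 genes (29.5% of 2736 marked genes) and shorter at 3 (70.5%), with Atoh1 and Olig1 called higher (11.3%) and Neurog1 and Neurog3 called lower (37.0%). The summed H2AK119ub1 length was 8369 bp in PCGF5-deficient ES cells and 7390 bp in PCGF5-deficient NPCs, with a median log2 ratio of 0.31 beside -0.82 for marked genes. Neurog1 was thus called higher in NPCs in wild type cells, at a log2 ratio of 1.29, and lower in PCGF5-deficient cells, where its length was 2372 bp in ES cells and 1084 bp in NPCs. The lower call of Neurog1 stood at the edge of the rule, and it was lost with a window of 1000 bp and with 500 bp added. Its higher call in wild type cells was lost with a window of 1000 bp and with equal numbers of peaks. That higher call was also lost with the higher-scoring peaks of each list. No test was made of the difference between the genotypes at Neurog1.

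The second comparison was that of PCGF5-deficient with wild type cells. In NPCs the PCGF5-deficient cells had less H2AK119ub1 under peaks at 7 genes (58.2% of 1999 marked genes) and more at Neurog2 alone (41.8%). Neurog3, Neurod1 and Atoh1 were called lower (31.0%) and none was called higher (17.8%). With the same number of peaks taken from every H2AK119ub1 list, or with a window of 1000 bp, 1 gene, Neurod1, remained called lower. The log2 ratios of those 3 genes were -2.17, -2.95 and -1.41, and the median over 8 genes was -0.89 beside -0.54 for marked genes and -1.05 for the whole lists. H3K27me3 was likewise shorter in PCGF5-deficient NPCs at 7 genes (61.7% of 4890 marked genes) and longer, by 102 bp, at Neurog1 (38.3%). Neurod1, at a log2 ratio of -1.86, and Atoh1, with 1539 bp against 3285 bp, were called lower for H3K27me3 (29.1%), and none was called higher (19.7%). Atoh1 stood at the edge of the rule, and its call was lost with 500 bp added and with windows of 1000 or 5000 bp. The median H3K27me3 ratio of the 8 genes with a peak was -0.34, near the -0.27 of marked genes and the -0.24 of the whole lists.

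In ES cells the genes split. H3K27me3 was longer in PCGF5-deficient cells at the 3 neurogenins (45.1% of 4731 marked genes) and shorter at Neurod1, Neurod2, Atoh1, Olig1 and Olig2 (54.8%). Of these, Neurod2, Atoh1, Olig1 and Olig2 were called lower (24.4%), at log2 ratios of -1.32, -1.06, -2.26 and -1.89, and none was called higher (24.1%). The call of Atoh1 rested on 217 bp in wild type cells against none, and it was lost with 500 bp added. With a window of 5000 bp the calls of Atoh1 and Olig2 were lost. The neurogenins had ratios of 0.20 at Neurog1, 0.39 at Neurog2 and 0.33 at Neurog3. The median H3K27me3 ratio was -1.02, beside -0.18 for marked genes and -0.17 for the whole lists. H2AK119ub1 was longer at 5 genes (43.6% of 3353 marked genes) and shorter at Atoh1 and Olig1 (56.3%). This balance turned to 3 longer and 4 shorter with a window of 1000 bp, without the gene body, or with neighbouring peaks joined. With the window of 1000 bp the genes that turned were Neurog2 and Olig2. In the other settings they were Neurod2 and Olig2, whose differences in the main setting were 48 bp and 44 bp. Neurog1 and Neurog3 were called higher (18.1%), at 1.43 and 1.39, and Olig1 was called lower (26.5%), at -1.18. The median H2AK119ub1 ratio of the 7 genes with a peak was 0.04 beside -0.29 for marked genes and -0.25 for the whole lists. For both marks the 3 neurogenins were thus longer in PCGF5-deficient ES cells, a grouping seen after their values were known. It did not hold with a window of 1000 bp. There H2AK119ub1 at Neurog2 was shorter in PCGF5-deficient cells, at 254 bp against 322 bp, and H3K27me3 at Neurog1 was shorter as well.

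**Figure D3:**
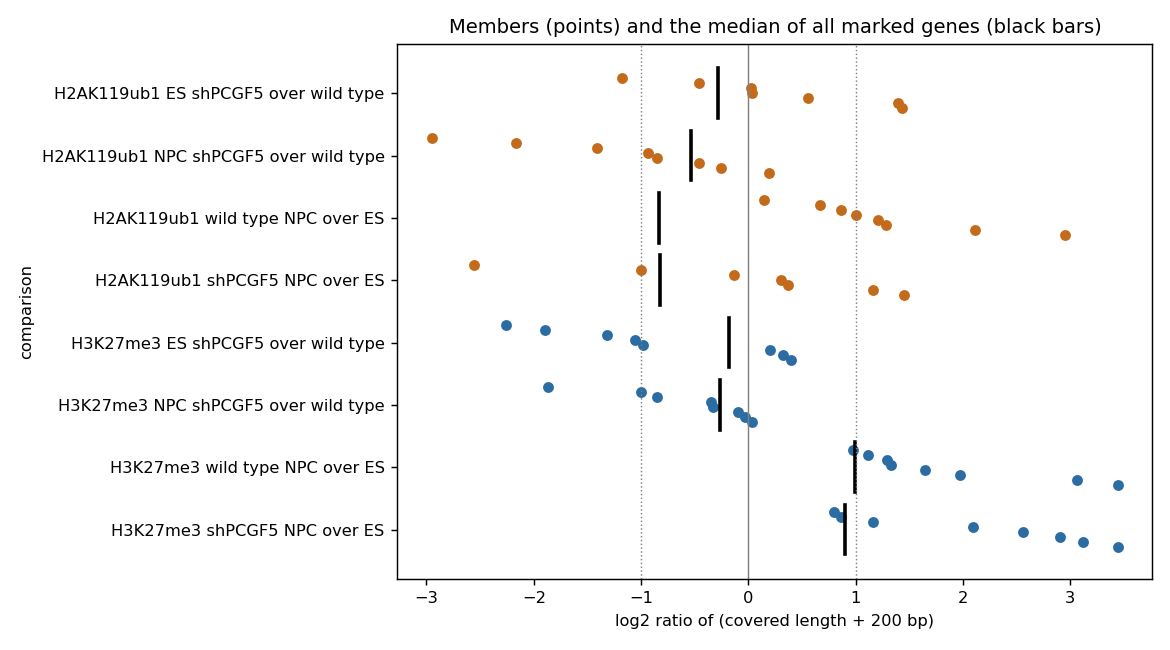
Log2 ratio of covered length plus 200 bp (x axis) for each gene with a peak in either list (points) in 8 comparisons (y axis), with black bars at the median of all marked genes and dotted lines at the 2-fold rule. In wild type cells all 8 H2AK119ub1 points of NPC over ES lie right of 0 while the median of marked genes lies at -0.84.

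The positions of the peaks differed between the marks. H3K27me3 peaks covered the start site itself at 6 genes in wild type ES cells (5.00% of all genes), namely the 3 neurogenins, Neurod1, Neurod2 and Olig1. In PCGF5-deficient ES cells they covered the start of Neurog3 (3.75%). In NPCs they covered 7 starts in wild type cells (7.97%), with Olig2 added to the same genes, and 4 in PCGF5-deficient cells (5.20%), those of the neurogenins and Olig2. H2AK119ub1 peaks covered no start in wild type ES cells (0.985%), that of Neurod2 in PCGF5-deficient ES cells (0.576%) and that of Neurog2 in wild type (0.585%) and PCGF5-deficient NPCs (0.684%). At Olig2 the longest wild type ES peak of H2AK119ub1 ran from 293 to 1527 bp after the start, and at Neurod2 it ran from 617 to 1644 bp. Within 20 kb of the 9 starts, H2AK119ub1 of wild type ES cells covered 2202 bp upstream and 8562 bp downstream, and that of wild type NPCs 11481 bp and 16038 bp.

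**Figure D4:**
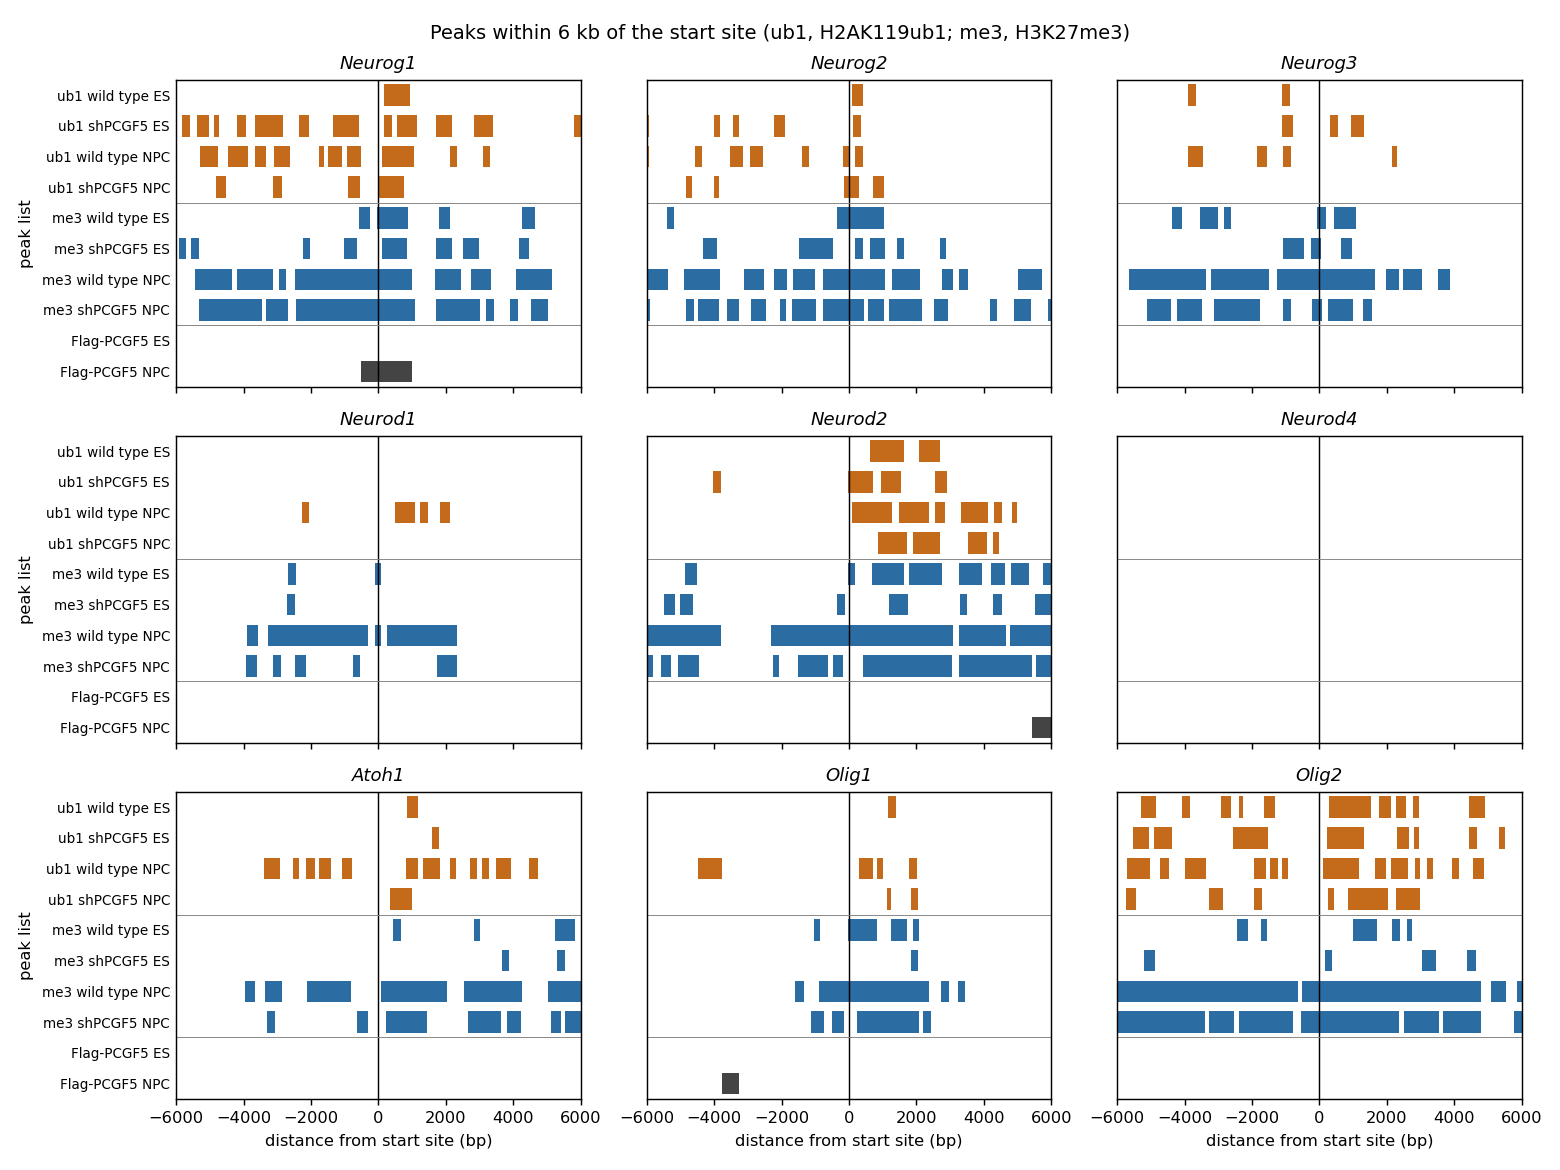
Peaks (bars) within 6 kb of the start site of each gene (x axis, distance in bp, positive in the direction of transcription) in each list (y axis), H2AK119ub1 in orange, H3K27me3 in blue and Flag-PCGF5 in dark grey. At Neurod2 the wild type NPC H3K27me3 peak runs from -2298 to 3083 bp, and H2AK119ub1 peaks mostly lie beside the start line and seldom on it.

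The base pairs of the marks were then laid over each other. In wild type NPCs 96.5% of the 13688 bp under H2AK119ub1 peaks also lay under H3K27me3 peaks, and in PCGF5-deficient NPCs it was 98.2% of 7390 bp. In ES cells the shares were 60.1% of 6079 bp in wild type and 31.0% of 8369 bp in PCGF5-deficient cells. H3K27me3 also covered more of the 9 regions in NPCs, with 35391 bp against 10502 bp in wild type cells. Of the H3K27me3 length of wild type ES cells, 98.6% lay within H3K27me3 peaks of wild type NPCs, which made up 29.3% of the latter. Between genotypes, 95.9% of the H3K27me3 length of PCGF5-deficient NPCs and 69.7% of that of wild type NPCs were shared. In ES cells the H3K27me3 peaks of the genotypes shared 28.7% of the wild type length and 46.5% of the PCGF5-deficient length.

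Fold enrichment, which the peak caller gives for each peak over the local background of its own library, belongs to its own list and is read here with its rank there. In wild type NPCs the highest H3K27me3 peak of Neurod2 reached 13.2, Neurog2 11.8, Olig2 11.7 and Neurod1 10.5, between the 98.4th and the 99.8th percentile of the peaks in that list. In PCGF5-deficient NPCs the highest H3K27me3 peaks of these genes had folds of 7.19, 5.94, 7.10 and 4.51, at the 97.9th, 91.5th, 97.5th and 65.2nd percentile of their list. The one of Neurog2 was a peak of 421 bp with 26 bp inside the region. Its peak over the start had a fold of 4.98, at the 77.1st percentile, whereas the wild type peak of 11.8 spanned the start. Neurog1 had folds of 5.84 and 6.48, at the 74.5th and 95.1st percentile. For H2AK119ub1 the highest fold at any of the 9 genes was 7.53 in wild type ES cells, at Neurod2, 5.75 in PCGF5-deficient ES cells, at Neurog1, 7.55 in wild type NPCs, at Neurod1, and 7.89 in PCGF5-deficient NPCs, at Olig2. The median fold of all peaks in these lists ranged from 4.00 to 4.91, so a fold in one list does not measure the mark against another list.

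Flag-PCGF5 was counted in the same way, and with 9 genes its counts do not set the group apart from all genes. The regions of the 9 genes measure 5001 to 14588 bp, and longer gene bodies elsewhere give more room for a peak. No gene of the 9 had a Flag-PCGF5 peak in ES cells (1.57% of all genes), and Neurog1 had one in NPCs (22.6%), while 88.2% of the 5184 genes with a Flag-PCGF5 peak at either stage were called higher in NPCs. That peak lay at chr13:56352526-56354047, measured 1522 bp and spanned the start of Neurog1, the 250 bases printed above included. A start under a Flag-PCGF5 peak was thus found at 0 of the 9 genes in ES cells (0.274%) and at 1 in NPCs (8.60%). Its fold was 2.02, at the 25.4th percentile of the list, and it was not among the higher-scoring 50% of that list. Of its length, 1515 bp were shared with H3K27me3 and 889 bp with H2AK119ub1 peaks of wild type NPCs, which lack the tag. Farther out, Neurog1 had Flag-PCGF5 peaks at -9274 to -7928 bp and at -14617 to -13791 bp of its start, Neurod2 had them at 5438 to 6334 bp and at -19151 to -16719 bp, and Olig1 had one at -3780 to -3252 bp. The other 6 genes had none within 20 kb of the start.

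CpG content at the start was set beside the marks. Neurod4 had the lowest ratio of the 9 genes and no peak. Across all genes, H3K27me3 peaks of wild type NPCs were found at 4.48% of the 4848 genes with a CpG ratio at or below that of Neurod4 and at 21.5% of the 17381 genes above it. For H2AK119ub1 of wild type NPCs the shares were 1.67% and 7.58%. Among the marked genes the order of CpG ratios and of marked lengths differed, since Neurod2 had a ratio of 0.455, below the median of all genes, and the longest H3K27me3 cover in wild type NPCs.

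**Figure D5:**
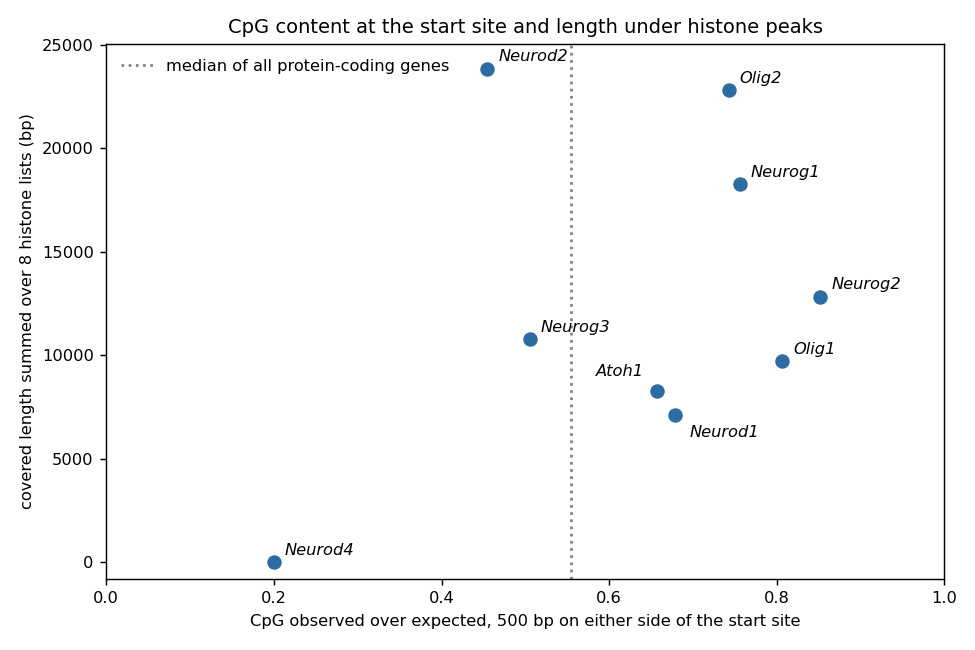
CpG observed over expected within 500 bp of the start site (x axis, no unit) and covered length summed over the 8 histone lists (y axis, bp) for each of the 9 genes, with a dotted line at the median of all protein-coding genes. Neurod4 sits alone at a ratio of 0.200 and a length of 0.

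The partners and regulators of the proneural factors came next. The E protein genes Tcf3, Tcf4 and Tcf12 had no histone peak in any of the 8 lists, and all 3 had Flag-PCGF5 peaks in NPCs (22.6% of all genes). Tcf3 had 1 peak of 708 bp, Tcf4 had 4 peaks over 1102 bp in all and Tcf12 had 1 peak of 210 bp. Their regions measure 26634 bp, 346322 bp and 270068 bp and so give far more room for a peak than those of the 9 genes, of 5001 to 14588 bp, and the Tcf12 peak lay 232255 bp from its start. Of the 4 Id genes, 2 had H3K27me3 peaks in wild type NPCs (17.8% of all genes) and 4 in PCGF5-deficient NPCs (17.7%). In the latter Id1, Id2 and Id3 were called higher (19.7% of marked genes), Id3 with 2659 bp against none. Id4 was called lower (29.1%), with 808 bp against 2097 bp. The order at Id1, Id2 and Id3 was the reverse of that at most of the 9 proneural genes, and the contrast was not tested. Hes and Hey genes likewise had H3K27me3 longer at 4 (38.3% of marked genes) and shorter at 2 (61.7%) in PCGF5-deficient NPCs. Among 7 Hes and Hey genes, 6 had H3K27me3 in wild type NPCs (17.8% of all genes), and Hes1, the main Notch effector, had no peak in any list. Hes3 and Hes5 had the longest H3K27me3 of this list, with 2509 bp and 2389 bp in wild type NPCs and 4684 bp and 4547 bp in PCGF5-deficient NPCs.

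Known targets of proneural factors were marked as well. Of Dll1, Dll3, Insm1, Rnd2, Ebf2 and Ebf3, 5 had H3K27me3 in wild type NPCs (17.8% of all genes) and Rnd2 had none. Ebf2 and Ebf3, regulators of neuronal differentiation, had 8066 bp and 7864 bp there. H2AK119ub1 was shorter in PCGF5-deficient than in wild type NPCs at the 4 targets with a peak (58.2% of marked genes). Of these, Ebf2 was called lower (31.0%), with 1249 bp against 5394 bp. Ebf2 was also the target with Flag-PCGF5 in NPCs (22.6% of all genes), where 3 peaks covered 1406 bp of a region of 198976 bp.

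Other bHLH genes gave the frame for the 9. Of 12 other neural bHLH genes, 11 had H3K27me3 in wild type NPCs (17.8% of all genes) and 7 in wild type ES cells (17.0%). H2AK119ub1 in wild type NPCs was found at 5 of them (6.29%). Neurod6, the close relative of Neurod2, had no peak in any list, as Neurod4 did. Of 18 bHLH genes of other lineages, 14 had H3K27me3 in wild type NPCs (17.8% of all genes), with Myf5, Myf6, Myog and Bhlha15 without. H2AK119ub1 in NPCs was found at 12 of these 18 genes in wild type (6.29%) and at 6 in PCGF5-deficient cells (5.92%). It was shorter in PCGF5-deficient NPCs at 11 of 12 genes (58.2% of marked genes) and longer at 1 (41.8%). The median log2 ratio was -0.97, beside -0.89 for the proneural genes and -0.54 for marked genes. Tal1, a factor of blood cells, had the longest H3K27me3 of that list, 9747 bp in wild type NPCs.

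The genes whose lengths over the 8 histone lists lay nearest to the median of the 9 were Fli1, Rsrc1, Pou3f3 and Nell1, at Euclidean distances of 1.21, 1.28, 1.30 and 1.31 in log2 of covered length plus 200 bp. The distance takes no account of the length of the gene region, so a long gene with a small share covered can rank near. Of the 9 genes themselves, Olig1 was nearest to that median at 2.18 and Neurod4 farthest at 8.04.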

How the data were processed

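ChIP-seq of H2AK119ub1, H3K27me3 and Flag-PCGF5 gave 10 peak lists, 1 library each. Groups came from the labels. Per the submitters' processing notes and the study's methods, the authors trimmed reads (Trimmomatic), aligned them to mm9 (Bowtie2), removed duplicates (Picard) and called peaks per library with MACS2 2.1.0. Histone chromatin was digested with micrococcal nuclease and Flag chromatin was sonicated, and whether this bears on peak widths was not tested. The spike-in of the study does not enter the lists.

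Per peak, the deposited lists hold a score, the fold enrichment (a ratio over local background) and both p-value and q-value as −log10, as the authors' caller wrote them. In 6 histone lists some peaks had a q-value above 0.05. Depth is unknown from these files.

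Overlaps of at least 1 bp with gene regions of GENCODE M1 on NCBIM37 were computed in Python 3.11.15. All 200 simulated peaks were recovered at their planted length, and covered lengths equalled those of bedtools 2.31.1 in all 10 lists. No peak of 86279 lay beyond a chromosome end. Ratios used covered length plus 200 bp, with a called change at 2-fold.

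All 9 genes are named. Of other lists, genes were named when they departed from most of their list, and at most 3 with the longest cover. The 5 genes nearest to the median of the 9 were sought, and some genes these rules reach are not reported here. The genes and lists were chosen with earlier results of these data known. Of 4 neural markers 3 were matched. Alternatives were peaks ranked in the higher 50%, a q-value of at most 0.01, equal numbers of peaks per mark, windows of 1000 and 5000 bp, no gene body, peak centres, joined peaks and 50 or 500 bp added.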

Additional observations from a re-analysis of the deposited data

Results flagged for a closer look

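Neurog3 was set apart because its H2AK119ub1 length was called changed in opposite directions by genotype at the 2 stages. PCGF5-deficient ES cells had 980 bp against 249 bp in wild type, a log2 ratio of 1.39. PCGF5-deficient NPCs had no peak against 697 bp in wild type, a log2 ratio of -2.17. Each value is from 1 library, and no test was made of ES cells against NPCs. The lower call in NPCs was lost with equal numbers of peaks and with a window of 1000 bp. That call was also lost with the higher-scoring peaks of each list and with a q-value of at most 0.01. The higher call in ES cells was lost with a window of 5000 bp and with 500 bp added. In the same cells H3K27me3 at Neurog3 had log2 ratios of 0.33 in ES cells and -0.85 in NPCs, short of the 2-fold rule in both. The region of Neurog3 also touches 2010107G23Rik.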

How the results depend on the processing

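No paired analysis was possible because each group had 1 library and the labels carry no replicate numbers, and for the same reason no replicate could be left out. Of the counts of genes recomputed under 10 alternatives, 394 stayed within 1.5 times the main count and 42 moved. The other recomputed results, values of single genes among them, moved more often, with 1771 unchanged and 717 moved. The cause was not tested. With the higher-scoring 50% of each list, the Flag-PCGF5 peak of NPCs was lost (0 genes with a peak, longer or called higher), 0 genes were called lower for H2AK119ub1 in PCGF5-deficient ES cells and 3 were longer, 2 were longer for each mark in PCGF5-deficient NPCs, and 1 gene was shorter in NPCs than in ES cells for H2AK119ub1 in wild type and for H3K27me3 in PCGF5-deficient cells. Under that setting H2AK119ub1 of Atoh1 in PCGF5-deficient cells turned from longer in NPCs to a difference of -182 bp. With equal numbers of peaks the Flag-PCGF5 counts were again 0, and H2AK119ub1 gave 0 genes called lower in PCGF5-deficient ES cells and 1 in PCGF5-deficient NPCs. With a q-value of at most 0.01, H2AK119ub1 was shorter at 1 gene in wild type NPCs than in ES cells. With a window of 1000 bp, H2AK119ub1 in PCGF5-deficient ES cells was longer at 3 genes, shorter at 4 and called higher at 1, it was called lower at 1 in PCGF5-deficient NPCs against wild type and at 1 against ES cells, and H3K27me3 was called higher at 4 in wild type NPCs against ES cells, longer at 2 and called lower at 1 in PCGF5-deficient NPCs against wild type. With a window of 5000 bp, 2 genes had a Flag-PCGF5 peak in NPCs (2 longer and 2 called higher), H2AK119ub1 in PCGF5-deficient NPCs was called lower at 5 and longer at 0, and H3K27me3 was called lower at 2 in PCGF5-deficient ES cells and at 1 in PCGF5-deficient NPCs. Without the gene body, H2AK119ub1 in PCGF5-deficient ES cells was longer at 3 genes and shorter at 4. With peak centres, H3K27me3 was longer at 2 genes in PCGF5-deficient NPCs. With joined peaks it was longer at 0 there and called higher at 1 in PCGF5-deficient ES cells, where H2AK119ub1 was longer at 3 and shorter at 4. With 500 bp added, H2AK119ub1 in PCGF5-deficient ES cells was called higher at 1 and lower at 0, in PCGF5-deficient NPCs against ES cells higher at 0 and lower at 1, and H3K27me3 was called lower at 1 in PCGF5-deficient NPCs. With 50 bp added no count moved past 1.5 times. A gene without a peak may carry a mark below the threshold of its library, and depth, which the lists do not give, was not adjusted for.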

Other observations

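Low CpG content and the absence of peaks did not always coincide among neural bHLH genes. Neurod6, with a CpG observed over expected ratio of 0.205, had no peak in any list, and neither had Neurod4 at 0.200. Nhlh2, at 0.211, had 2953 bp of H3K27me3 in wild type and 722 bp in PCGF5-deficient NPCs. Nhlh1, at 0.070, had 366 bp in wild type and 892 bp in PCGF5-deficient NPCs, and a Flag-PCGF5 peak of 677 bp in NPCs. These genes were singled out after their values were seen.

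Neurog1 had a cluster of H2AK119ub1 peaks in PCGF5-deficient ES cells that reached well beyond its region. Within 20 kb of its start the 13 peaks covered 5209 bp, against 1 peak of 754 bp in wild type ES cells. In NPCs the same window held 4731 bp in wild type and 1663 bp in PCGF5-deficient cells.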
